A study of Mus musculus with 30 samples.

Results

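Apoptosis through the mitochondrion is set by the BCL2 family of proteins. Its BH3-only members carry death signals, its anti-apoptotic members hold those signals in check, and its pore formers open the outer mitochondrial membrane. Cytochrome c released through the pores binds APAF1, which then assembles the apoptosome and switches on caspase-9. Several genes of this machinery are known targets of the transcription factor p53, and PUMA (Bbc3) and NOXA (Pmaip1) are the best studied of them in fibroblasts with damaged DNA.

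The members described here were 10 genes of this machinery, out of 18194 genes that had a probe set with a single gene symbol. They were the BH3-only genes Bbc3, Pmaip1, Bid, Bcl2l11 and Bmf, the anti-apoptotic genes Bcl2l1, Mcl1 and Bcl2, the pore former Bak1 and the apoptosome gene Apaf1. Where a gene had several probe sets, the brightest on average across the 30 arrays was used, and the others served as a check. All 10 passed the filter on dim probe sets, which left 12674 genes for testing. Pmaip1 and Bbc3 each had 1 probe set, and the other members had between 2 (Bak1 and Apaf1) and 6 (Mcl1).

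The cells were C57BL/6 x 129SvJ mouse embryonic fibroblasts, taken from E13.5 embryos, with p53 LSL/LSL alleles, which are silent until Cre recombinase removes a stop cassette. In the time course (10 arrays), cells were infected for 24 h with AdenoCre, an adenovirus whose Cre switches p53 back on, or with AdenoGFP, which carries GFP in its place. They were then left untreated (0 h) or given 500 nM doxorubicin, a drug that damages DNA, for 1, 3, 6 or 9 h, with 1 array for each virus and time. In both siRNA experiments every group, controls included, carried AdenoCre for 24 h, then an siRNA for 24 h, then 100 nM doxorubicin for 13 h. The lincP21KD experiment (8 arrays) had siRNA against p53 (siP53, 3 arrays), against the long noncoding RNA lincRNA-p21 (siLincp21, 3 arrays) and a non-targeting pool (siScramble, 2 arrays). The hnRNPKKD experiment (12 arrays) had 3 arrays each of siP53, siLincp21, siRNA against the RNA-binding protein hnRNP-K (siHnrnpk) and a non-targeting pool (siControl). The siRNA experiments have no arrays without doxorubicin. No time-course cells had Cre but lacked p53, so there the return of p53, Cre itself and the loss of GFP cannot be told apart. Nothing in the labels says that replicates came from separate cultures. In the siRNA experiments p-values therefore measure the spread between these arrays only, which may be technical. The time course has no replicates, and its p-values between viruses measure how the gap within a pair varied over the times. Those of its slopes measure the scatter of single arrays around fitted lines.

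Values are log2 RMA signals, so a difference of 1 is a 2-fold difference. Array medians over all probe sets lay between 4.832 and 5.656, and levels were compared only within an experiment. The arrays carried fibroblast RNA: all 10 fibroblast markers lay above the filter limit, with array means of 11.69 to 12.88. Of 6 macrophage markers 4 lay above the limit, and their array means were 4.92 to 6.26. Ptprc, the pan-leukocyte marker, was the lowest, at a mean of 3.77 to 4.44 in the 3 experiments, below the limit of 4.544. Cd14 was the highest, at 6.79 in the time course, 8.01 in hnRNPKKD and 8.2 in lincP21KD. Of 4 endothelial markers 1 lay above the limit, and of 5 epithelial markers 2. The lowest mean of a fibroblast marker was that of Lum in lincP21KD, 4.76, near the limit. The siRNA against hnRNP-K lowered Hnrnpk by 3.51 ± 0.35 (SE, limma adjusted p = 2.12e-05), with values of 8.38, 8.34 and 9.94 against 12.68, 12.03 and 12.47 in siControl. The siP53 arrays were checked through 2 p53 targets, since p53 and lincRNA-p21 themselves are not analysed here. Cdkn1a, the p53 target that encodes p21, differed by -2.07 ± 0.11 with siP53 in lincP21KD and by -2.64 ± 0.18 in hnRNPKKD, and Mdm2, the ubiquitin ligase of p53, by -2.36 ± 0.15 and -3.22 ± 0.23. One array stood apart. In the hnRNPKKD experiment, siP53 replicate 2 differed from the other siP53 arrays with an SD over genes of 0.378 and 0.513, against 0.163 to 0.270 within the other groups of that experiment and 0.232 between the other siP53 arrays. Its Mdm2 value was 9.74, against 8.55 and 8.65 in the other siP53 arrays, and calls of members that change without it are given beside the results.

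In GRCm38.p6 RefSeq places those the results turn on most, beside Pmaip1 and Bbc3, at chr10:90989311-91082743 (Apaf1), chr2:152758732-152833803 (Bcl2l1), chr2:128126038-128162547 (Bcl2l11), chr3:95656944-95663179 (Mcl1) and chr2:118528757-118549686 (Bmf). Promoter sequence was available from RefSeq (GRCm38.p6) as windows from 250 bases before to 50 bases after a transcript start, for 16 starts of 9 members. Pmaip1 is named only. The windows were searched for the p53 consensus, 2 adjacent decamer half-sites with no spacer, allowing up to 3 mismatches in 20 bases and requiring the invariant C and G of each half-site. The consensus reads the same on both strands. Of the 16 windows, 1 held a match, in Bbc3, and the same search matched 453 of 32851 windows (1.38%). The Bbc3 stretch is shown because it holds that match and because Bbc3 was higher with AdenoCre at every time. It lies at chr7:16309456-16309535 on the + strand, and the site starts at -97 from the transcript start at 16309583. RefSeq places Bbc3 at chr7:16308398-16318334, so this stretch lies inside the span of the gene, before one of its internal starts. Capitals mark the 20-base site.
Bbc3: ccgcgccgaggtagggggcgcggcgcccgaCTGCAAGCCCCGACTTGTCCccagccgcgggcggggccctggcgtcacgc

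The closest 20-base stretches of 4 other members are set beside that of Bbc3, each on the strand of its gene, with capitals for the 4 central bases of each half-site. Bcl2l1 had 4 mismatches (chr2:152828573-152828592), Bcl2l11 had 5 (chr2:128125803-128125822), and Mcl1 (chr3:95658540-95658559) and Apaf1 (chr10:91082745-91082764) each had 6.
Bbc3: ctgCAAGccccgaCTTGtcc
Bcl2l1: gacCTTGgacaggCTGGttt
Bcl2l11: acaCTAGggtaaaCACGccg
Mcl1: gcaCTTGgccagcCGGGctg
Apaf1: ttgCGTGcccgggCGCGcgc

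A match describes letters in a window and is no evidence of binding, and no match says only that these letters are not in the window.

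With AdenoCre, 3 of the 5 BH3-only genes, the anti-apoptotic Bcl2l1 and the apoptosome gene Apaf1 were higher than with AdenoGFP. Pmaip1 changed most, by 5.11-fold, followed by Bbc3 at 2.09-fold, Apaf1 at 1.76-fold, Bcl2l1 at 1.58-fold and Bid at 1.27-fold. Thus 5 of 10 members rose and 0 fell, where 12.9% of all tested genes rose and 6.24% fell (limma with the 5 times as a block, Benjamini-Hochberg adjusted p below 0.05). The median difference was 0.31 over the members and 0.04 over all tested genes. Bcl2, Mcl1 and Bcl2l11 lay within 0.10 of no difference.

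NOXA, the product of Pmaip1, binds and neutralises MCL1. Pmaip1 read 7.67, 8.73, 8.72, 7.61 and 7.94 at 0, 1, 3, 6 and 9 h with AdenoGFP, and 9.15, 9.62, 11.06, 11.15 and 11.47 with AdenoCre. Every AdenoCre array lay above every AdenoGFP array, and the AdenoCre values from 3 h on were the 3 highest. The difference was 2.35 ± 0.38 (SE, n = 5 pairs, limma adjusted p = 0.00559), and it was higher in 5 of 5 pairs.

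PUMA, the product of Bbc3, binds all the main anti-apoptotic proteins. Its values were 7.16, 6.97, 7.16, 6.87 and 6.72 with AdenoGFP and 7.87, 7.79, 8.08, 8.23 and 8.25 with AdenoCre, in the same order of times. The groups did not overlap, and the gap within a pair went from 0.71 at 0 h to 1.53 at 9 h. The difference was 1.07 ± 0.13 (limma adjusted p = 0.00232). Bbc3 and Pmaip1 were the members whose groups did not overlap, and the groups of Cdkn1a and Mdm2 did not either. The share of all tested genes without overlap was not counted, so the lack of overlap does not set these members apart.

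Bcl2l1 encodes BCL-XL, an inhibitor of death, and rose in the same arrays as Pmaip1 and Bbc3. It read 9.01, 8.85, 9.30, 9.24 and 9.00 with AdenoGFP and 9.29, 9.50, 9.85, 10.05 and 10.03 with AdenoCre. The groups overlapped at a single point, the untreated AdenoCre array (9.29) against the AdenoGFP array at 3 h (9.30), and every pair was higher with AdenoCre. The difference was 0.66 ± 0.11 (limma adjusted p = 0.00741). Both other probe sets of Bcl2l1 above the limit gave larger differences, 1.18 ± 0.14 and 1.19 ± 0.15 (limma adjusted p = 0.00204 and 0.00215).

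Apaf1 showed wider gaps between the viruses at 3, 6 and 9 h than at 0 and 1 h, on 1 array for each virus and time. It read 9.26, 9.43, 9.26, 9.12 and 8.94 with AdenoGFP, and 9.61, 9.38, 10.44, 10.44 and 10.19 with AdenoCre. The pairs at 0 and 1 h differed by 0.35 and -0.05, and those at 3, 6 and 9 h by 1.18, 1.32 and 1.26. The difference over all pairs was 0.81 ± 0.21 (limma adjusted p = 0.029), and the second probe set gave 0.93 ± 0.26, also called. The call was lost without the 3, 6 or 9 h arrays, at 0.72, 0.68 and 0.70 (limma adjusted p = 0.0977, 0.085 and 0.0878).

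Bid links death receptors to the mitochondrion after caspase-8 cuts it. Its values were 9.07, 8.91, 8.68, 8.61 and 9.09 with AdenoGFP and 9.39, 9.55, 8.80, 9.00 and 9.35 with AdenoCre. The groups overlapped, although each pair was higher with AdenoCre, by 0.12 to 0.64. Its difference of 0.35 ± 0.09 (limma adjusted p = 0.0365) lost the call when any 1 time was left out (0.27 to 0.40), and the other probe sets gave 0.34 and 0.08 with no call.

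Bak1, a pore former in the outer membrane, missed the threshold at 0.28 ± 0.12 (limma adjusted p = 0.154). The pairs at 0, 1 and 3 h differed by 0.42, 0.56 and 0.48, the pair at 6 h by 0.18 and that at 9 h by -0.24. Without the 9 h arrays Bak1 was called at 0.41. Bmf, a BH3-only gene linked to stress of the cytoskeleton, differed by -0.30 ± 0.13 (limma adjusted p = 0.145), with pairs from -0.70 at 9 h to 0.19 at 1 h. Its AdenoCre values lay between 4.94 and 5.06, close to the filter limit, and without the 1 h arrays it was called at -0.42.

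The 3 members left were flat between the viruses. Bcl2l11, which encodes BIM, differed by -0.03 ± 0.11, with an interval of -0.27 to 0.22. Mcl1, the short-lived anti-apoptotic member that NOXA opposes, differed by -0.10 ± 0.09 (-0.30 to 0.11), and Bcl2, the founding member, by -0.05 ± 0.08 (-0.23 to 0.12). Bcl2l11 read higher at 9 h than at 0 h with both viruses, from 9.74 to 10.30 with AdenoGFP and from 9.58 to 10.49 with AdenoCre between 0 and 9 h.

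**Figure D1:**
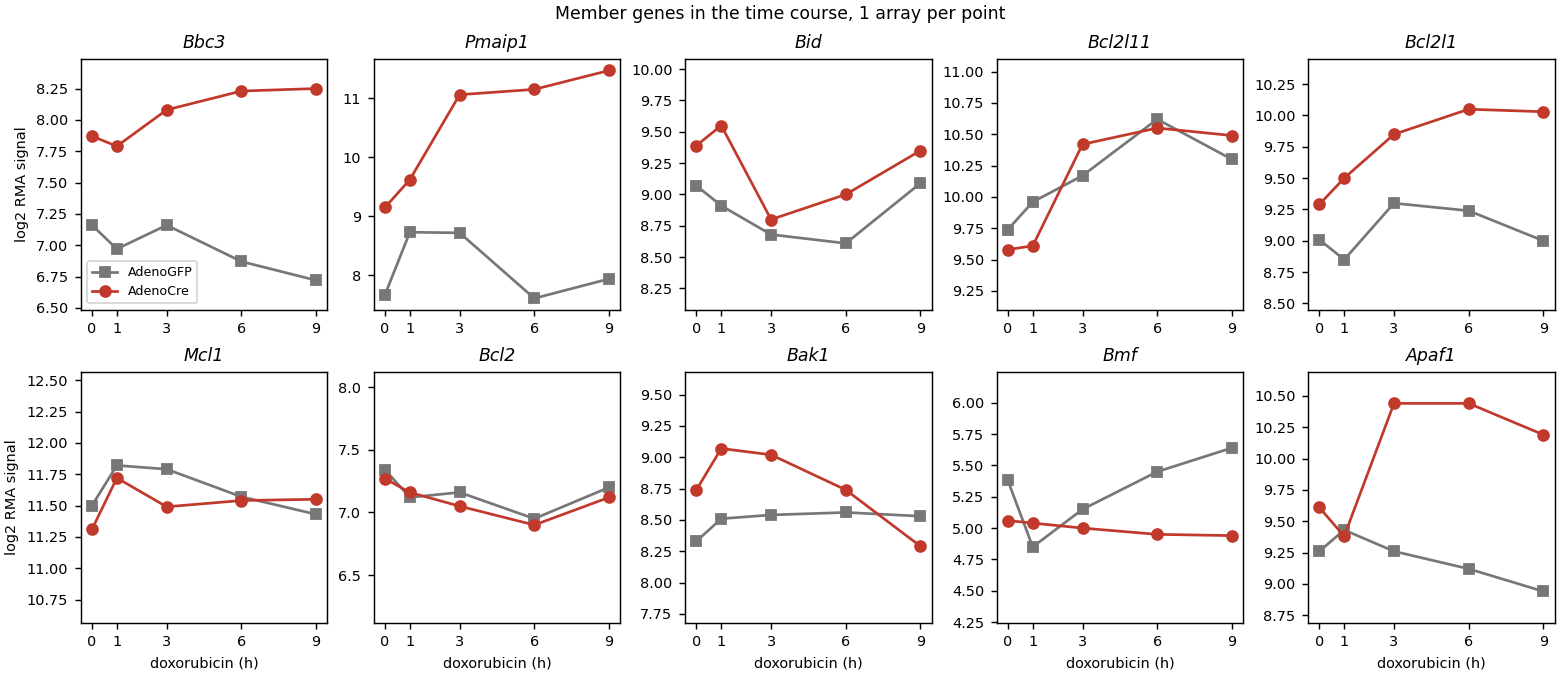
Log2 RMA signal (y axis) of each member against hours of doxorubicin (x axis, 0 is untreated) with AdenoGFP (grey squares) and AdenoCre (red circles), 1 array per point, each panel on its own scale of at least 2 log2 units. Pmaip1 goes from 9.15 to 11.47 with AdenoCre, the gap of Apaf1 is wider from 3 h on than before, and Mcl1 and Bcl2 run together in both viruses.

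Slopes on hours were fitted to ask whether members moved during the 9 h of doxorubicin. No member passed the threshold within AdenoCre, within AdenoGFP or for the difference of slopes (0 of 10 each by limma), where 5.4%, 0.00789% and 0.181% of all tested genes did. At an unadjusted p below 0.05 the counts were 6, 2 and 4. The share of all tested genes at that level was not counted, so these counts do not set the members apart. The steepest slope was that of Pmaip1 in AdenoCre, 0.249 ± 0.063 per hour (limma adjusted p = 0.0513), against -0.046 ± 0.063 in AdenoGFP. Bcl2l11 followed at 0.112 ± 0.032 per hour in AdenoCre (limma adjusted p = 0.0821) and 0.072 ± 0.032 in AdenoGFP. Another Bcl2l11 probe set passed in AdenoCre, at 0.115 per hour (limma adjusted p = 0.026), and the rest gave 0.063 to 0.080 with no call. Both other Bcl2l1 probe sets above the limit passed in AdenoCre, at 0.122 and 0.111 per hour, where its main probe set gave 0.082 ± 0.024.

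Other genes of the pathway were counted from lists of 73 genes, of which 60 were tested. Of these 14 rose and 3 fell with AdenoCre, where 12.9% of all tested genes rose and 6.24% fell. Of the 14, 9 belonged to a list of 12 death genes already linked to p53. That list was chosen for its known response, so its direction is not independent evidence. Trp53inp1, a p53-induced nuclear protein, rose by 3.69 ± 0.29, Perp, a membrane protein of p53-dependent death, by 3.50 ± 0.30, and Zmat3, an RNA-binding p53 target, by 1.95 ± 0.12. Bcl2l2, which encodes the anti-apoptotic BCL-W, rose by 0.67 ± 0.12 beside Bcl2l1. Among caspases, Casp6 rose by 0.40 ± 0.08 and Casp8 by 0.28 ± 0.08, and Casp2 fell by 0.46 on the log2 scale. Fbxw7, which marks MCL1 for degradation, rose by 0.96 ± 0.20, and Foxo3, a transcription factor that drives Bcl2l11, rose by 1.02 ± 0.13. Bnip3, a hypoxia-induced BH3-only protein, differed by -0.53 ± 0.10 and Trib3, a stress-induced pseudokinase, by -1.04 ± 0.15, and both were called. None of the 5 caspase inhibitors, 7 apoptosome and released proteins or 11 outer membrane and fission genes passed the test. The listed genes that were not tested are not analysed here.

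The siP53 comparisons ask which members depend on p53 in cells that have Cre and doxorubicin throughout. Pmaip1 and Apaf1 fell in both experiments, Pmaip1 by 4.52-fold and 7.27-fold and Apaf1 by 2.02-fold and 3.37-fold. In lincP21KD these were the 2 of 10 members called lower, and 0 were higher, where 5.74% of tested genes fell and 7.01% rose. In hnRNPKKD 5 of 10 fell (Pmaip1, Apaf1, Bbc3, Bcl2l11 and Bcl2l1) and 1 rose (Bmf), where 19.2% fell and 19.3% rose. The members' median was -0.08 in lincP21KD and -0.30 in hnRNPKKD, against 0.02 and -0.01 over all tested genes. In these bulk samples, fewer cells of a type and less RNA per cell cannot be told apart.

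Pmaip1 read 6.81, 6.73 and 7.51 with siP53 against 9.10 and 9.28 with siScramble in lincP21KD. In hnRNPKKD it read 6.16, 6.43 and 6.06 against 9.34, 8.65 and 9.25 with siControl. All siP53 arrays lay far below all control arrays. The differences were -2.18 ± 0.22 and -2.86 ± 0.16 (limma adjusted p = 0.000245 and 8.52e-08).

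Apaf1 read 9.10, 9.17 and 9.23 with siP53 against 10.20 and 10.17 in lincP21KD, and 8.79, 8.96 and 9.02 against 10.90, 10.41 and 10.70 in hnRNPKKD. In both experiments every siP53 array lay below every control array, by far more than the spread within a group. The differences were -1.02 ± 0.08 and -1.75 ± 0.12 (limma adjusted p = 7.07e-05 and 5.95e-07), and the second probe set gave -0.81 ± 0.10 and -1.85 ± 0.22.

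Bbc3 read 7.44, 7.64 and 7.85 with siP53 against 7.92 and 8.0 in lincP21KD. The groups did not overlap, but the difference of -0.32 ± 0.12 missed the threshold (limma adjusted p = 0.114), and it was called without siP53 replicate 3 at -0.42. In hnRNPKKD the values were 7.16, 7.48 and 6.85 against 8.24, 7.98 and 8.02, a difference of -0.92 ± 0.14 (limma adjusted p = 0.000178). The highest siP53 value there was that of the array that stood apart, and without it the difference was -1.08.

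Bcl2l11 behaved differently in the experiments. In lincP21KD it read 10.70, 10.79 and 10.71 with siP53 against 10.66 and 10.59, a difference of 0.11 ± 0.08 with no call (limma adjusted p = 0.421). In hnRNPKKD it read 10.16, 9.94 and 10.15 against 10.88, 10.55 and 10.71, and it fell by 0.63 on the log2 scale (SE 0.13, limma adjusted p = 0.00201). Of its 4 other probe sets there, 3 fell by 0.55 to 0.63, and the last gave -0.24 with no call.

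Bmf was the member that rose with siP53, and it was called in hnRNPKKD. It read 7.08, 6.62 and 7.51 against 5.65, 5.87 and 5.63 with siControl, with no overlap, and the difference was 1.35 ± 0.21 (limma adjusted p = 0.000306). In lincP21KD the values were 5.46, 5.85 and 5.60 against 5.74 and 5.22, and the difference was 0.16 ± 0.16. Both other Bmf probe sets lay below the filter limit and gave -0.34 and 0.13 in hnRNPKKD with no call, so the rise rests on 1 probe set.

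Bcl2l1 read 9.73, 9.58 and 9.83 with siP53 against 10.23, 9.86 and 9.94 in hnRNPKKD. Its difference of -0.30 ± 0.11 sat at the threshold (limma adjusted p = 0.0484), and it lost the call without siP53 replicate 1 (-0.31), siP53 replicate 2 (-0.23), siControl replicate 1 (-0.19) or siControl replicate 3 (-0.33). The other 2 probe sets above the limit fell by 0.71 and 0.74. In lincP21KD the difference was -0.11 ± 0.09 with overlapping groups. Bid gave -0.05 ± 0.10 and -0.29 ± 0.12, the second called only without siP53 replicate 2 (-0.44) or with the replicate number as a block (-0.30). Mcl1, Bcl2 and Bak1 were not called in either experiment, with differences from -0.16 to 0.17, although Bak1 was called in hnRNPKKD without siP53 replicate 2 at 0.26. For Mcl1, 3 of 5 other probe sets were called higher in hnRNPKKD, at 0.31 to 0.48, where the main probe set gave 0.06 ± 0.09. The rest gave 0.31 and -0.24 with no call, so the probe sets of Mcl1 did not share a direction.

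**Figure D2:**
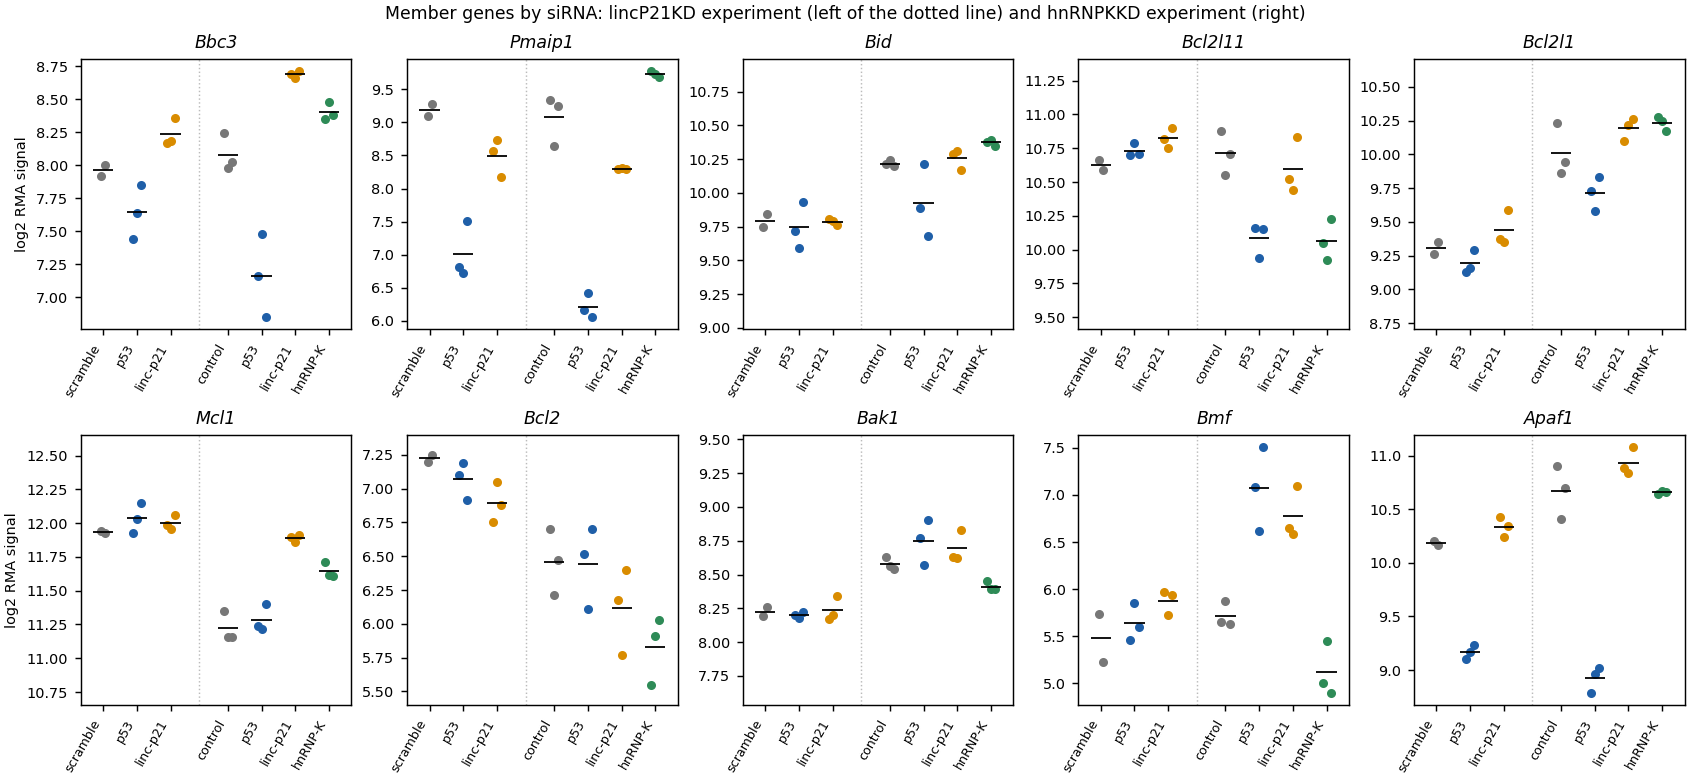
Log2 RMA signal (y axis) of each member by siRNA (x axis), with 1 point per array, a black line at the group mean and each panel on its own scale of at least 2 log2 units; the lincP21KD experiment lies left of the dotted line and hnRNPKKD right of it, and levels are not compared across the line. The p53 groups of Pmaip1 and Apaf1 lie below their controls in both experiments, and Bmf is high with siP53 and siLincp21 in hnRNPKKD.

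With siP53, 7.01% of all tested genes rose and 5.74% fell in lincP21KD, and 19.3% rose and 19.2% fell in hnRNPKKD. Among the 60 other pathway genes, 3 rose and 13 fell with siP53 in lincP21KD, and 8 rose and 18 fell in hnRNPKKD. The p53-linked death list gave 9 and 10 of those that fell. Perp differed by -2.37 ± 0.11 and -3.27 ± 0.13, and Ei24, an endoplasmic reticulum protein induced by p53, by -1.25 ± 0.07 and -1.95 ± 0.10. Casp6 differed by -0.45 ± 0.08 and -1.13 ± 0.11, Fbxw7 by -0.67 ± 0.09 and -0.68 ± 0.10, and Vdac1, a channel of the outer membrane, by -0.72 ± 0.09 and -0.97 ± 0.09, all called. Diablo, which releases caspases from their inhibitors, rose by 0.36 ± 0.08 and 0.32 ± 0.10, and Htra2, a protease with the same effect, rose by 0.72 ± 0.09 in hnRNPKKD. Macrophage markers moved in these comparisons too. Of the 4 tested, 2 rose with AdenoCre, and 3 fell with siP53 in lincP21KD and 2 in hnRNPKKD, and 1 fell with siLincp21 in lincP21KD and 1 with siHnrnpk. Of 10 fibroblast markers, 3 rose with siP53 and 4 with siLincp21 in lincP21KD, and 5 rose and 1 fell with each of these siRNAs in hnRNPKKD. With AdenoCre 2 fell, and with siHnrnpk 2 fell. The shares of all tested genes called in these comparisons are those given with the members' counts. The part of these markers in the members' results was not tested.

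Differences between the experiments in the siP53 effect were tested in a joint fit of all 20 siRNA arrays, each effect against its own control. This contrast was called for 4 of 10 members and for 14.5% of all tested genes. The fall was larger in hnRNPKKD for Apaf1 by -0.73 ± 0.16 (limma adjusted p = 0.00462) and for Bbc3 by -0.60 ± 0.19 (adjusted p = 0.0451). Bcl2l11 differed by -0.74 ± 0.17 (limma adjusted p = 0.00575) and Bmf by 1.19 ± 0.30 (adjusted p = 0.0122). The Bmf call was lost without lincP21KD siScramble replicate 1 (0.94), and the Bbc3 call when any of 8 arrays was left out (-0.64 to -0.44). Pmaip1 missed the threshold at -0.69 ± 0.29 (limma adjusted p = 0.125) and was called without hnRNPKKD siP53 replicate 2 at -0.79 or without siControl replicate 2 at -0.90. Bid, at -0.25 ± 0.16, was also called without siP53 replicate 2, at -0.39, so that 6 members were called without that array. Cdkn1a and Mdm2 gave -0.57 ± 0.24 and -0.86 ± 0.32 in the same contrast, with no call. Without siP53 replicate 2 both were called, at -0.85 and -1.24 (limma adjusted p = 0.000215 and 6.71e-05), and their part in the members' results was not tested.

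Knockdown of lincRNA-p21 asks which members depend on this noncoding RNA while p53 is present. In lincP21KD none of 10 members was called by limma, where 11.9% of all tested genes were. An unadjusted p below 0.05 was seen for 5 members. The share of all tested genes at that level was not counted, so this count does not set the members apart. In hnRNPKKD 3 of 10 rose (Mcl1, Bbc3 and Bmf) and 1 fell (Pmaip1), where 17.2% of tested genes rose and 11.8% fell. The members' median was 0.10 in lincP21KD and 0.15 in hnRNPKKD, against 0.01 over all tested genes in each.

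Pmaip1 gave much the same difference in both, called in one. With siLincp21 it read 8.57, 8.73 and 8.18 against 9.10 and 9.28 in lincP21KD, a difference of -0.70 ± 0.22 (limma adjusted p = 0.0754). In hnRNPKKD it read 8.29, 8.31 and 8.30 against 9.34, 8.65 and 9.25, and fell by 0.78 on the log2 scale (SE 0.16, limma adjusted p = 0.00234). No siLincp21 array reached its controls in either, and the difference between experiments was -0.08 ± 0.29, with an interval of -0.69 to 0.52. Its level stayed well above that with siP53, which was lower by 1.48 ± 0.20 and 2.08 ± 0.16 in the direct contrasts.

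Mcl1 split the experiments. In hnRNPKKD it read 11.90, 11.86 and 11.91 with siLincp21 against 11.35, 11.16 and 11.16, and rose by 0.66 ± 0.09 (limma adjusted p = 0.000139). All 5 other probe sets rose there too, by 0.53 to 1.04. In lincP21KD it read 11.99, 11.96 and 12.06 against 11.94 and 11.93, a difference of 0.07 ± 0.08. The effects differed by 0.60 ± 0.12 (limma adjusted p = 0.00416), the single member of 10 called in that contrast, where 8.14% of all tested genes were.

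Bbc3 moved the opposite way to its fall with siP53. It read 8.69, 8.66 and 8.71 with siLincp21 against 8.24, 7.98 and 8.02 in hnRNPKKD, an increase of 0.61 ± 0.14 (limma adjusted p = 0.0048). In lincP21KD it read 8.17, 8.18 and 8.36 against 7.92 and 8.0, with no overlap, but the difference of 0.28 ± 0.12 was not called (limma adjusted p = 0.165). The effects in the experiments differed by 0.33 ± 0.19, which did not pass (-0.08 to 0.74).

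Bmf read 6.65, 6.58 and 7.10 with siLincp21 against 5.65, 5.87 and 5.63 in hnRNPKKD and rose by 1.06 ± 0.21 (limma adjusted p = 0.0025), again on 1 probe set. The mean of its probe sets lost the call there, at 0.26 (limma adjusted p = 0.11). In lincP21KD the difference was 0.40 ± 0.16 (limma adjusted p = 0.143), and it was 0.65 without siScramble replicate 1 and 0.14 without siScramble replicate 2. Apaf1, the second member that fell with siP53 in both experiments, did not fall here: its differences were 0.15 ± 0.08 and 0.26 ± 0.12, and neither was called. Without siControl replicate 1, Apaf1 was called higher in hnRNPKKD, at 0.38 (limma adjusted p = 0.04). Bcl2 gave -0.33 ± 0.11 and -0.34 ± 0.20, with an adjusted p of 0.0749 and 0.223 by limma, and in lincP21KD it was called without siLincp21 replicate 2 at -0.41. In hnRNPKKD a second Bcl2 probe set was called at -0.29. Bid, Bcl2l11, Bcl2l1 and Bak1 lay between -0.12 and 0.20 in both experiments, although another Bcl2l11 probe set was called at -0.46 in hnRNPKKD.

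The direct contrast of siP53 with siLincp21 was called for 3 of 10 members in lincP21KD, all lower with siP53 (Bbc3, Pmaip1 and Apaf1), where 20.4% of all tested genes were called. In hnRNPKKD it was called for 7 of 10, all lower with siP53, where 38.8% were. Of these, Bid (-0.33 ± 0.12) lost the call without siP53 replicate 1 (-0.31), siP53 replicate 3 (-0.21), siLincp21 replicate 1 (-0.31) or siLincp21 replicate 2 (-0.30). Apaf1 was lower by 1.17 ± 0.07 and 2.01 ± 0.12 and Bbc3 by 0.60 ± 0.11 and 1.53 ± 0.14, in the order lincP21KD and hnRNPKKD. Bmf differed by 0.29 ± 0.21 in hnRNPKKD, with an interval of -0.17 to 0.75. Without siP53 replicate 2, Bmf (0.51) and Bcl2 (0.49) were called higher with siP53.

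In the 60 other pathway genes, 4 rose and 2 fell with siLincp21 in lincP21KD, and 10 rose and 10 fell in hnRNPKKD. Of all tested genes 7.47% rose and 4.39% fell in lincP21KD, and 17.2% rose and 11.8% fell in hnRNPKKD. Trib3 rose by 1.44 ± 0.24 and 1.47 ± 0.17, and Fbxw7 by 0.39 ± 0.09 and 1.01 ± 0.10. Ei24 differed by -0.47 ± 0.07 and -0.78 ± 0.10 and Perp by -0.53 ± 0.11 and -0.43 ± 0.13, both called, as Pmaip1 was in hnRNPKKD. Zmat3 rose by 0.62 ± 0.12 in hnRNPKKD, so the list of p53-linked death genes split there into 5 higher and 2 lower of 12.

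**Figure D3:**
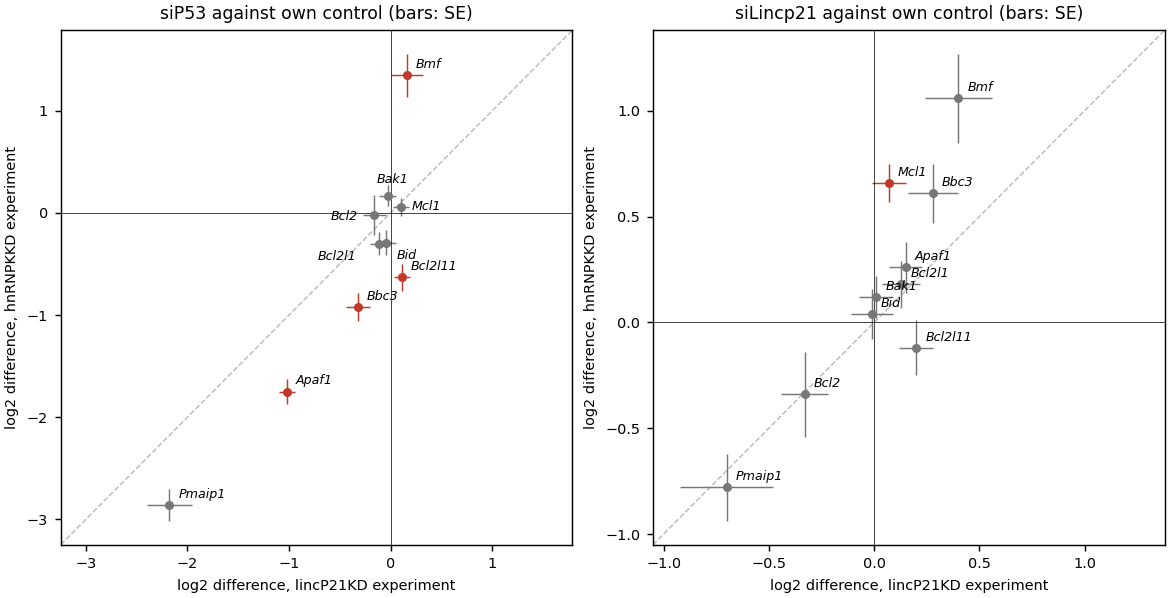
Log2 difference from the own control in lincP21KD (x axis) against that in hnRNPKKD (y axis) for siP53 (left) and siLincp21 (right), with bars of 1 SE, a dashed line of equal effects and red for members whose effects differ at an adjusted p below 0.05. With siP53, Apaf1, Bbc3 and Bcl2l11 lie below the line and Bmf above it, and with siLincp21 Mcl1 lies above it.

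With knockdown of hnRNP-K, Pmaip1 and Mcl1 rose, and Bcl2l11 and Bcl2 fell. These were 2 of 10 members in each direction, where 14.1% of tested genes rose and 12.8% fell. Bbc3, Apaf1, Bid, Bcl2l1, Bak1 and Bmf were not called. The members' median was 0.07, against 0.00 over all tested genes.

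Pmaip1 read 9.77, 9.73 and 9.68 with siHnrnpk against 9.34, 8.65 and 9.25, above every control array. It rose by 0.65 ± 0.16 (limma adjusted p = 0.00836), opposite to its fall with siLincp21, and by 0.43 without siControl replicate 2. The direct contrast of siLincp21 with siHnrnpk was -1.43 ± 0.16 (limma adjusted p = 3.47e-05). Mcl1, its partner, read 11.71, 11.62 and 11.61 against 11.35, 11.16 and 11.16 and rose by 0.42 ± 0.09 (limma adjusted p = 0.00348), with 0.41 to 0.68 in its other probe sets, all called.

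Bcl2l11 read 10.05, 9.92 and 10.23 with siHnrnpk against 10.88, 10.55 and 10.71, below every control array. It fell by 0.65 on the log2 scale (SE 0.13, limma adjusted p = 0.00253), and its other 4 probe sets fell by 0.38 to 0.72. Bcl2 read 5.55, 5.91 and 6.03 against 6.70, 6.21 and 6.47, a difference of -0.63 ± 0.20 (limma adjusted p = 0.033). The Bcl2 groups did not overlap but were wide, and of its other probe sets above the limit 1 was called at -0.41 and 1 gave -0.16 with no call. The call of the main probe set was lost without siHnrnpk replicate 1 (-0.49), siHnrnpk replicate 2 (-0.67), siControl replicate 1 (-0.51) or siControl replicate 3 (-0.62). Bmf, at 5.0, 5.45 and 4.90 against 5.65, 5.87 and 5.63, missed the threshold at -0.61 ± 0.21 (limma adjusted p = 0.053).

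The contrast of siLincp21 with siHnrnpk was called for 3 of 10 members, with Bcl2l11 (0.53 ± 0.13) and Bmf (1.66 ± 0.21) higher and Pmaip1 lower with siLincp21, where 27.6% of all tested genes were called. That of siP53 with siHnrnpk was called for 9 of 10, where 45.3% were, with Bcl2, Bak1 and Bmf higher with siP53 and 6 members lower. The Bcl2 and Bak1 calls were lost without siP53 replicate 1 (0.57 and 0.32) or siP53 replicate 3 (0.48 and 0.26), that of Bcl2 also without siHnrnpk replicate 1 (0.47) and that of Bak1 without siHnrnpk replicate 2 (0.32). Bcl2l11 was the exception, at 0.02 ± 0.13 (-0.26 to 0.30). These contrasts and those against siControl share arrays, so their values stand side by side and are not independent.

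Of the 60 other pathway genes, 8 rose and 5 fell with siHnrnpk, where 14.1% of all tested genes rose and 12.8% fell. Bnip3 fell by 1.68 on the log2 scale (SE 0.13), the largest change among the 60, and Aifm1, a flavoprotein released from mitochondria, by 0.46. Steap3, a ferrireductase induced by p53, rose by 0.82 ± 0.12, while Perp fell by 0.68. Bcl2l2 fell by 0.30 and Mfn1, a mitochondrial fusion protein, rose by 0.53 ± 0.11.

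**Figure D4:**
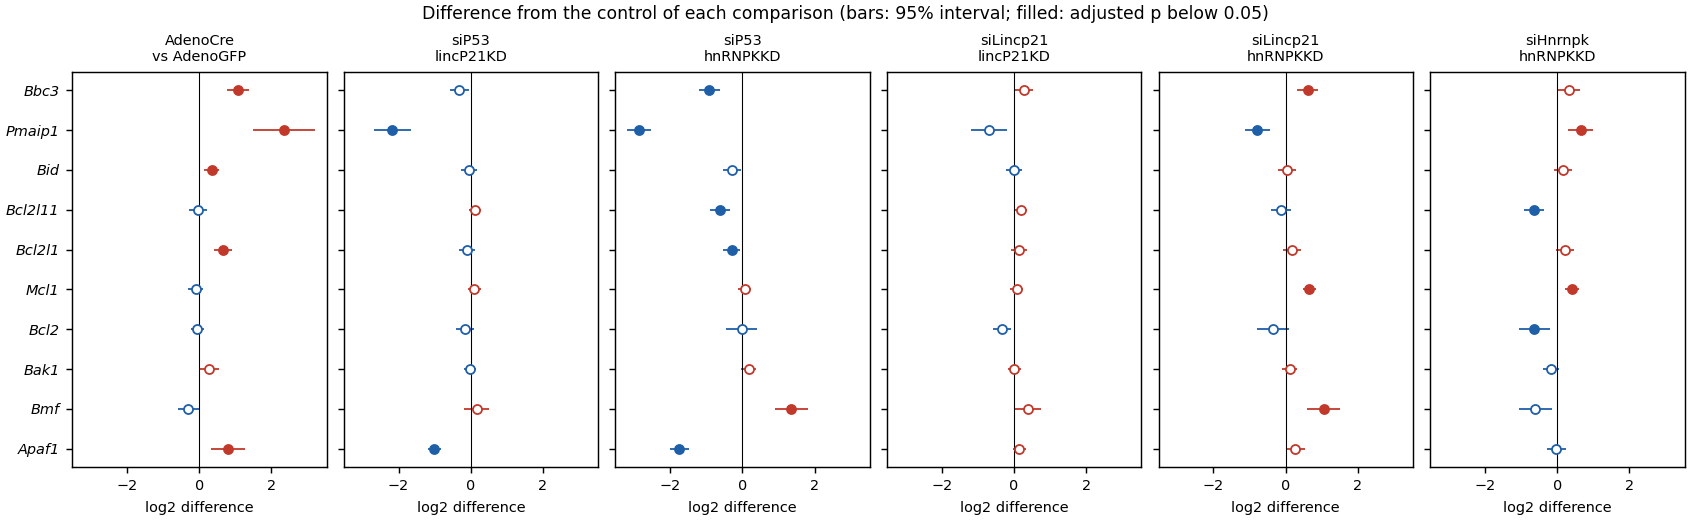
Log2 difference of each member from the control (x axis) in the 6 main comparisons, with 95% intervals, red for positive and blue for negative values, and filled points for an adjusted p below 0.05. Pmaip1 is filled in 5 of the 6 panels, and the hnRNPKKD comparisons share their siControl arrays.

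Across all 30 arrays, with each experiment centred on its own mean, Bbc3, Pmaip1, Apaf1 and Bcl2l1 varied together. Pearson's r was 0.89 between Bbc3 and Apaf1, 0.87 between Pmaip1 and Apaf1, 0.83 between Bbc3 and Bcl2l1 and 0.82 between Bbc3 and Pmaip1. It was lowest with Bcl2l1, at 0.79 for Pmaip1 and 0.75 for Apaf1. Bak1 had r of -0.16 to 0.15 with all of Bbc3, Pmaip1, Bid, Bcl2l1 and Apaf1, and Bmf had -0.67 with Pmaip1. These values describe arrays that share treatments. By the same measure, the 3 tested genes most like each member were named. For Bbc3 they were Blcap (0.961), Rgs12 (0.946) and Slc19a2 (0.944), for Pmaip1 Arap2 (0.970), Ei24 (0.955) and Mdm2 (0.942), and for Apaf1 Sesn2 (0.959), Zfp365 (0.956) and Mdm2 (0.954). For Bcl2l1 they were Ulk1 (0.928), Tbc1d2 (0.925) and Pdrg1 (0.922), and for Bmf the collagen gene Col1a2 (0.898), Tpd52l2 (0.892) and Gucd1 (0.891). The other members had lower values: Saysd1 (0.876), 2010320M18Rik (0.830) and Hdgfl2 (0.828) for Bid, Igdcc4 (0.845), Gpc4 (0.798) and Sytl2 (0.795) for Mcl1, and Skil (0.834), Rbm27 (0.830) and Foxk2 (0.828) for Bcl2. For Bak1 they were Mrvi1 (0.819), Snhg18 (0.802) and Erlec1 (0.797), and for Bcl2l11 Ptchd1 (0.788), Ypel5 (0.774) and Fbxo28 (0.771). Mdm2 was among the nearest of both Pmaip1 and Apaf1.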

How the data were processed

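RNA was measured on 30 Affymetrix arrays. Per the submitters' processing notes, the authors computed the deposited log2 values with RMA, whose version the sources do not give. Of 45101 probe sets, 34958 had 1 gene symbol, 932 several and 9211 none, and 34754 of the former had an updated entry in RefSeq (GRCm38.p6). Genes whose probe set lay among the lowest 40% of all probe sets by mean were left out. The values were used without further scaling. On arrays, the number of arrays limits the precision. Each experiment had its own limma fit (version 3.58.1, R 4.3.3, lmFit and eBayes), except in the joint fit, with p-values adjusted by Benjamini-Hochberg over 12674 genes, and a gene was called below 0.05. The scripts were tested on simulated data. Errors are SE. The naming rule took all members, the 3 nearest genes of each and up to 3 called genes per pathway list and comparison, of which the text gives a part. Members, lists and tests were chosen with earlier results of these data known. Replicate numbers were not used as pairs or blocks in the main fits, since the labels do not state that they pair arrays. Those of siHnrnpk and siControl deviated together (correlations 0.216, 0.166 and 0.209). Against the same controls the correlations were 0.357, 0.359 and -0.186 for siP53 and -0.157, 0.315 and -0.206 for siLincp21. A replicate block was run as an alternative only. Alternatives covered filters, scaling, variances, probe sets, blocks and leaving out arrays.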

Additional observations from a re-analysis of the deposited data

Results flagged for a closer look

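In 5 cases the effect of an siRNA differed between the lincP21KD and hnRNPKKD experiments by a test of the difference itself (limma, joint fit, hnRNPKKD minus lincP21KD). For siP53 these were Apaf1 at -0.73 (adjusted p = 0.00462), Bbc3 at -0.60 (adjusted p = 0.0451), Bcl2l11 at -0.74 (adjusted p = 0.00575) and Bmf at 1.19 (adjusted p = 0.0122). For siLincp21 it was Mcl1 at 0.60 (adjusted p = 0.00416). The Bbc3 difference lost the call in 10 of its alternatives, among them median centring at -0.56 (adjusted p = 0.0593) and without lincP21KD siScramble replicate 1 at -0.56 (adjusted p = 0.151). Bmf lost it without the same scramble array at 0.94, and as the mean of its probe sets at 0.31. Apaf1 kept its call in all 17 alternatives, with adjusted p between 0.000525 and 0.0291.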

How the results depend on the processing

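No called result of a member changed direction in any alternative run. Probe sets below the filter limit read opposite to a called result in 3 cases of hnRNPKKD, with no call. Bmf gave -0.34 with siP53 (1.35 in the main one) and -0.31 with siLincp21 (1.06), and Bcl2l1 gave 0.09 with siP53 (-0.30). Over all members and comparisons, 50 results lost a call and 44 gained one. Of the rest, 1906 kept their direction and their side of the threshold, and 108 changed direction with no call in either run. The number of members called with AdenoCre (5) ranged from 3 (without the 3 h or 6 h arrays) to 5 when 1 time was left out. For the slope in AdenoCre (0) it was 1 with quantile scaling, 2 with trend and robust variances, 3 with the mean of probe sets, 2 on log2 hours and 0 to 1 with 1 time left out. For siLincp21 in lincP21KD (0) it ranged from 0 to 1 when 1 array was left out. The siP53 difference between experiments (4) ranged from 2 (without lincP21KD siScramble replicate 1) to 6 (without hnRNPKKD siP53 replicate 2) when 1 array was left out, and the siLincp21 difference (1) rose to 2 with the mean of probe sets. With the replicate block, 4 member calls were gained and none lost: Bbc3 with siP53 in lincP21KD at -0.40 (adjusted p = 0.016), Bid with siP53 in hnRNPKKD at -0.30 (adjusted p = 0.0399), Bcl2l1 in siP53 against siLincp21 of lincP21KD at -0.24 (adjusted p = 0.0324) and Bak1 in siLincp21 against siHnrnpk at 0.28 (adjusted p = 0.0449). For siHnrnpk against siControl, where arrays of the same number deviated together, it changed no member call. Over all genes, 2427 calls with AdenoCre became 1304 with no time block and 1146, 1444 and 1511 without 3, 6 or 9 h. The 684 slopes in AdenoCre became 439 on log2 hours and 204 to 424 with 1 time left out. The 1 slope in AdenoGFP became 2 with quantile scaling and 0 on log2 hours or with any 1 time left out. The 23 slope differences became 9 with the stricter filter, 41 with trend and robust variances, 5 on log2 hours and 0 to 19 with 1 time left out. In lincP21KD, 1615 calls with siP53 became 620 or 701 without a scramble array, and 1503 with siLincp21 became 286 or 511 without one and 798 without siLincp21 replicate 1. Their direct contrast (2590) became 1627 without that array. The siP53 difference (1837) became 1074 or 936 without a scramble array and 4351 without hnRNPKKD siP53 replicate 2, and the siLincp21 difference (1032) became 573 or 388. Median centring moved the share of higher calls by over 10 points in 1 contrast, siP53 against siLincp21 in lincP21KD (from 45.1% to 32.6%).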
